A study of Mus musculus with 12 samples.

Results

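The epidermal growth factor (EGF) family genes examined here were 7 ligands (Ereg, Areg, Hbegf, Epgn, Tgfa, Btc and Nrg1) and 3 receptors (Egfr, Erbb2 and Erbb3). They were taken as a named list and found by symbol among the 49315 gene identifiers of the count tables. All 10 were present, and all 10 were among the 17416 genes kept after a filter on low counts. RNA-seq had been run on 12 libraries from mouse adult fibroblasts (MAFs), which are primary cells isolated from the ears of adult female mice. The wild-type (WT) cells came from C57BL6/J animals, and the KO cells came from mice labelled BMAL1 -/-, which lack a core transcription factor of the circadian clock. Cells of both genotypes were sham irradiated (control) or received X-rays at 20 Gy and were cultured on to senescence. Cultures of all 4 groups were grown at low oxygen, received 100 nM dexamethasone for 2 h to synchronise their clocks, and were collected 12 h later. Each group held 3 libraries. The loss of BMAL1 was present in the living animal and not only in culture, and nothing in the sources used here says whether replicates were separate cultures or separate animals. P-values therefore measure the spread between these libraries, which may be technical.

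EGF family ligands are made as membrane-anchored precursors. Proteases of the ADAM family cut them at the cell surface, and the freed domain binds EGFR or a related ERBB receptor on the same cell or on a neighbour. Ligand binding pairs the receptors, and their kinase activity starts the RAS to ERK and PI3K to AKT cascades, which drive growth, migration and wound repair in skin and its fibroblasts. Cells answer with rapid transcription of early response genes and of feedback inhibitors such as Sprouty and dual-specificity phosphatase proteins.

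What places the ligands in 1 family is the EGF-like domain, held together by cysteines at characteristic spacing. The coding transcripts of the listed ligands in GENCODE M21 (GRCm38), and of no other genes, were searched for that spacing. Some gaps between cysteines were allowed to vary in length, and 7 of 7 ligands matched. The coding bases of the domain are shown for 6 of them, 5′ to 3′ on the coding strand, because the ligands have this domain in common. Capitals mark the 6 cysteine codons of each domain.
Ereg: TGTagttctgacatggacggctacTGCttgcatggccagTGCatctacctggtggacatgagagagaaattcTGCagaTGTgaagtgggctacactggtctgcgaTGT
Areg: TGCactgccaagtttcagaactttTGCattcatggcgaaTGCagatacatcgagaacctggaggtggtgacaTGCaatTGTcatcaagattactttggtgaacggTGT
Epgn: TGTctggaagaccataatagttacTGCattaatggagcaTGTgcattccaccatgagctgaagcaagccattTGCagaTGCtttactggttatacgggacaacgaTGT
Tgfa: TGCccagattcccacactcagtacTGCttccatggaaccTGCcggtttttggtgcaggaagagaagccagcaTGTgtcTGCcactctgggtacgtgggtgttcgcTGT
Btc: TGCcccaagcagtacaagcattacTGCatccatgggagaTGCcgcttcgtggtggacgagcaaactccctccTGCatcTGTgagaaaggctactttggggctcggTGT
Nrg1: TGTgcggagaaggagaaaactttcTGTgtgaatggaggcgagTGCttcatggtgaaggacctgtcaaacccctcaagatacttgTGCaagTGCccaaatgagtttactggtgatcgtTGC

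The domain spanned 108 bases in all ligands but Nrg1, where it spanned 120. Among the ligands of equal length, identity between pairs ran from 45.4% of bases (Ereg with Tgfa) to 62.0% (Tgfa with Btc, and Hbegf with Btc). Nrg1 had 13 coding transcripts with the domain and 2 different versions of it, and the gene counts do not separate them.

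Total counts ranged from 23923030 to 31736083 per library, and 3 counts, taken as the detection floor, stood for 0.101 to 0.135 CPM on the scale used here. CPM is the usual depth-scaled count of a gene (counts per 10 to the power 6 library counts), and library sizes were adjusted with TMM (trimmed mean of M-values) factors of 0.926 to 0.967 in control and 1.04 to 1.07 in senescent libraries. The targeted gene, listed as Arntl, ranged over 29.8 to 33.2 CPM for WT control, 35.2 to 37.4 CPM in WT senescent, 11.8 to 15.2 CPM in KO control and 25.3 to 27.5 CPM in KO senescent libraries. The KO libraries all lay below the WT ones, although reads of the gene were counted in each. Of 8 fibroblast markers, 8 were above 1 CPM in every group, with summed levels of 16430 to 17240 CPM for WT control, 6861 to 7121 CPM in WT senescent, 21200 to 22830 CPM in KO control and 8624 to 9144 CPM in KO senescent libraries. That sum was carried by the collagen genes Col1a1, Col1a2 and Col3a1, which fell in both genotypes, whereas 5 of the 8 markers rose in WT and 3 of 8 in KO senescent cells, among them Dcn, from 28.9 to 299 CPM in WT. Markers of cartilage cells, which ear tissue holds, were also present. The 6 chondrocyte markers summed to 7241 to 9007 CPM, 1840 to 2127 CPM, 4711 to 6518 CPM and 571 to 657 CPM in the same order of groups, with none at 0. Their sum thus moved with both senescence and genotype, and its part in the results was not tested. The 8 keratinocyte markers summed to 10.8 to 15.5 CPM in control and 21.2 to 24.7 CPM in senescent WT libraries, and to 12.2 to 12.9 CPM and 19.2 to 20.8 CPM in KO libraries. In each genotype 3 of them rose by a log2 fold change over 1 (Krt5, Dsp and Cdh1). Trp63 went the other way in KO cells, from 8.39 CPM in control to 3.37 CPM in senescent cells. In WT cells Trp63 was at 8.16 and 10.0 CPM. Krt14, Krt1 and Epcam were too low to test, and the part of these shifts in the results was not tested. Summed markers of Schwann cells (6 genes), melanocytes (5), macrophages (5) and endothelium (4) stayed at or below 35.1 CPM in every library. The only marker of these lists at 0 in all 3 libraries of a group was 1 Schwann cell gene in KO control cells. Within groups, 2 libraries stood apart. By the mean chi-square per gene between replicate counts, KO control replicate 1 was at 17.3 and 13 against the others, which were at 3.74 from each other, and KO senescent replicate 3 was at 18.9 and 14.4, against 8.06. Both were also the highest libraries of their groups for Ereg and Hbegf. By the same measure WT control replicates 2 and 3 were at 11.1 from each other, and at 6.69 and 5.92 from replicate 1. In bulk RNA, fewer cells of a type and less RNA per cell cannot be told apart.

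The first comparison asked how family members differed between senescent and control WT cells. In WT senescent cells 6 of the ligands and receptors were higher and 1 was lower at an adjusted p under 0.05, in edgeR's quasi-likelihood (QL) test with Benjamini-Hochberg adjustment over all genes tested, from which every adjusted p below comes unless another test is named. The 6 of 10 higher stand beside 29.2% of all genes tested, and the 1 of 10 lower beside 27%. With the added requirement of a log2 fold change over 1 in size, the definition of a called gene, 1 of 10 was called (Nrg1) beside 17.4% of all genes. In KO cells the same comparison gave 7 members higher and 1 lower, beside 28.5% and 28.6% of all genes. There, 6 of 10 were called (Ereg, Hbegf, Nrg1, Btc and Epgn higher, Erbb2 lower), beside 18.8%. The median log2 fold change of the 10 members was 0.33 in WT and 1.10 in KO cells, and that of all genes tested was 0.02 and −0.00.

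**Figure D1:**
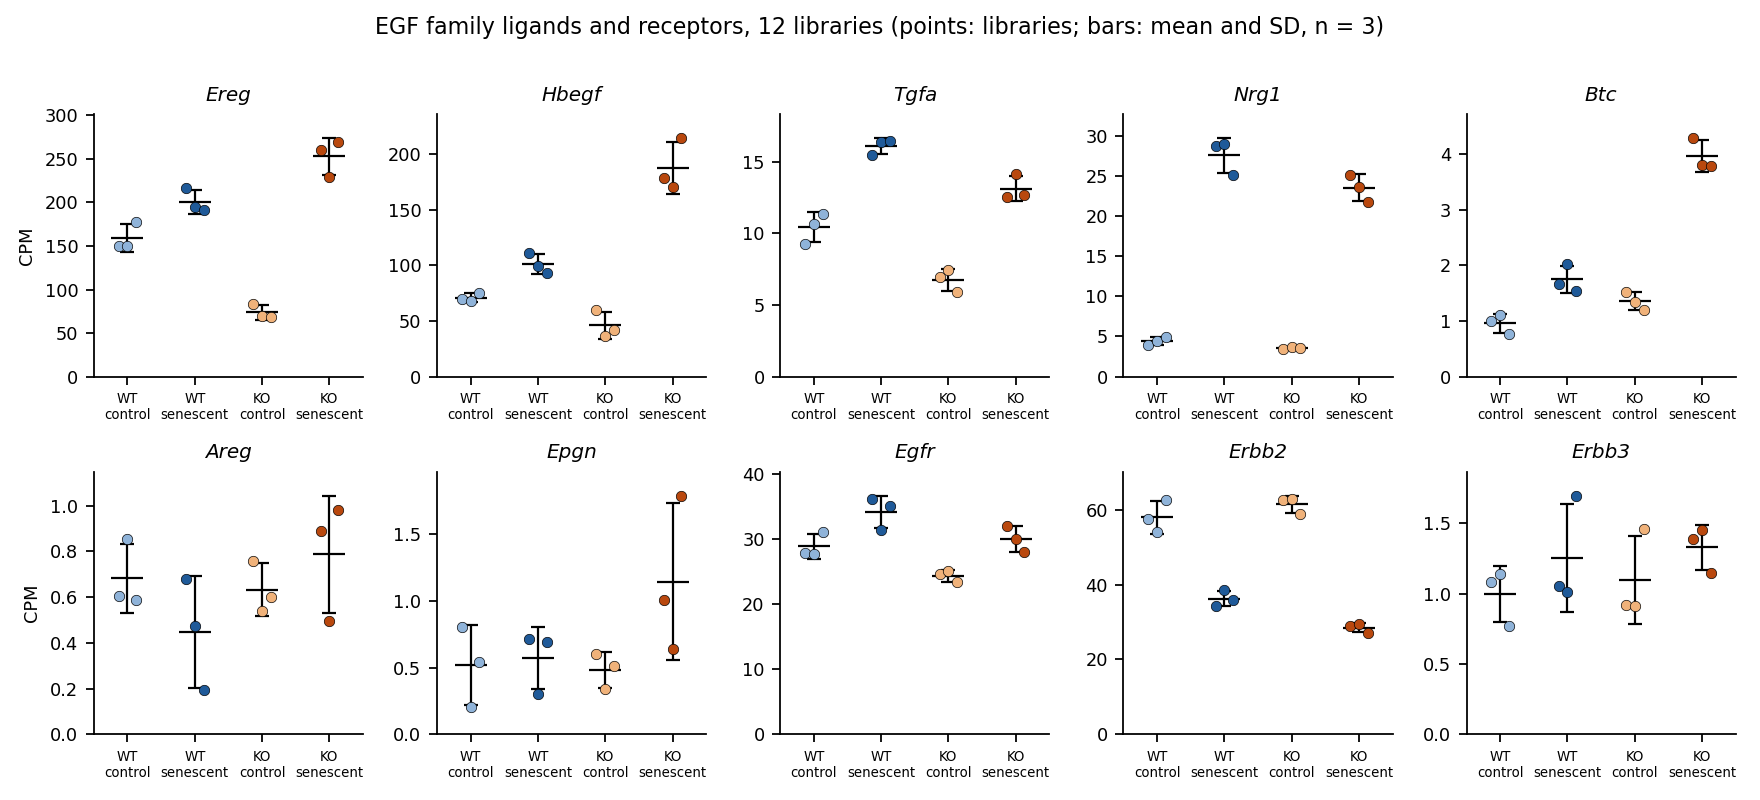
Level of each of the 10 family members in CPM (vertical axis, starting at 0, a separate scale for each gene) in the 12 libraries, by group. Points are libraries and bars the mean and SD of 3. Ereg and Hbegf have their lowest points in KO control and their highest in KO senescent libraries, Nrg1 separates senescent from control libraries in both genotypes, and Erbb2 is lowest in KO senescent libraries.

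Ereg encodes epiregulin, a ligand of EGFR and ERBB4, and had the highest level of any member. The gene lies at chr5:91074622-91093646 on the plus strand (ENSMUSG00000029377, GRCm38). It was measured at 150.0, 149.6 and 178 CPM for WT control, 216, 194 and 191 CPM in WT senescent, 83.5, 69.1 and 68.2 CPM in KO control and 260.5, 229 and 269 CPM in KO senescent replicates 1 to 3. No 2 of the 4 groups overlapped, with KO control libraries lowest and KO senescent libraries highest. Ereg rose with senescence by a log2 fold change of 0.34 (SE 0.09, adjusted p = 0.00508) in WT cells, from 159 ± 16.2 to 201 ± 13.6 CPM (SD, n = 3). In KO cells it rose by 1.78 (SE 0.09, adjusted p = 2.97e-10), from 73.6 ± 8.57 to 253 ± 21.2 CPM. The KO rise was 1.88 without KO control replicate 1 and 1.73 without KO senescent replicate 3. The KO response exceeded the WT response by 1.44 (SE 0.13, adjusted p = 7.73e-06), and this difference stayed between 1.35 and 1.54 without any 1 of the 12 libraries. Control cells of the 2 genotypes differed in the opposite direction to senescent cells. Ereg was lower in KO than in WT control cells by a log2 fold change of −1.11 (SE 0.09, adjusted p = 1.19e-06), and higher in KO than in WT senescent cells by 0.33 (SE 0.09, adjusted p = 0.0133). The second of these lost significance without WT senescent replicate 2 (0.31, adjusted p = 0.0581), WT senescent replicate 3 (0.30, adjusted p = 0.0604) or KO senescent replicate 3 (0.29, adjusted p = 0.0736). The exons of Ereg overlap those of the antisense gene Gm19610 by 141 bases, and because the use of strand in counting was not stated, reads of the pair in that stretch cannot be told apart.

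Hbegf encodes heparin-binding EGF-like growth factor, a ligand of EGFR and ERBB4 that is induced at wound edges. The gene (ENSMUSG00000024486) lies on chromosome 18, from 36504927 to 36515805 on the minus strand. Its levels were 69.3, 67.9 and 75.3 CPM for WT control, 111, 99.6 and 92.7 CPM in WT senescent, 59.9, 36.5 and 41.9 CPM in KO control and 179, 170.0 and 214 CPM in KO senescent replicates 1 to 3. The order of the groups was that of Ereg, again with no overlap between any 2 groups. In KO cells Hbegf rose with senescence from 46.1 ± 12.3 to 188 ± 23.5 CPM (SD, n = 3), a log2 fold change of 2.03 (SE 0.18, adjusted p = 6.81e-06), which was 2.26 without KO control replicate 1 and 1.92 without KO senescent replicate 3. In WT cells it rose by 0.52 (SE 0.17, adjusted p = 0.0284), which did not pass without any 1 of WT control replicates 1 to 3 or WT senescent replicates 1 and 2 (adjusted p from 0.0515 to 0.0891) and with no filter on low counts (adjusted p = 0.0717). The KO response exceeded the WT response by 1.51 (SE 0.24, adjusted p = 0.00263), with values of 1.36 to 1.75 and adjusted p no higher than 0.00996 when single libraries were left out. KO senescent cells were higher than WT senescent cells by 0.89 (SE 0.17, adjusted p = 0.0044). Between control cells the difference was −0.62 (SE 0.18, adjusted p = 0.0508), which missed the threshold. It passed in 5 of 8 alternative analyses, and the value without KO control replicate 1, the highest of its group, was −0.85 (adjusted p = 0.000195).

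Tgfa encodes transforming growth factor alpha, a ligand of EGFR. The gene lies at chr6:86195223-86275719 on the plus strand (ENSMUSG00000029999), and 118 of its exon bases are shared with Gm43917 on the other strand. Its levels were 9.29, 10.7 and 11.3 CPM for WT control, 15.4, 16.4 and 16.4 CPM in WT senescent, 6.96, 7.41 and 5.88 CPM in KO control and 12.5, 14.1 and 12.7 CPM in KO senescent replicates 1 to 3. Each KO group lay wholly below its WT counterpart, and each senescent group lay above both control groups. Tgfa rose with senescence by a log2 fold change of 0.63 (SE 0.11, adjusted p = 3.62e-05) in WT and 0.95 (SE 0.11, adjusted p = 2.42e-07) in KO cells. The difference of 0.33 between these responses did not pass (95% interval 0.01 to 0.65, adjusted p = 0.145). KO control cells were lower than WT control cells by −0.62 (SE 0.11, adjusted p = 0.000717). The lower level in KO senescent than in WT senescent cells, −0.29 (SE 0.10, adjusted p = 0.0443), lost significance without any 1 of 5 of the 6 libraries concerned, all but KO senescent replicate 2, with adjusted p up to 0.134, and in 3 of 8 alternative analyses.

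Nrg1 encodes neuregulin 1, which binds ERBB3 and ERBB4 rather than EGFR and is best known from Schwann cell and heart development. The gene spans chr8:31814551-32884029 on the minus strand (ENSMUSG00000062991). Its levels were 3.90, 4.40 and 4.97 CPM for WT control, 28.7, 28.9 and 25.1 CPM in WT senescent, 3.44, 3.67 and 3.52 CPM in KO control and 25.1, 23.6 and 21.8 CPM in KO senescent replicates 1 to 3. All senescent libraries were far above all control libraries, and the senescent groups of the genotypes met at their edges. The log2 fold change with senescence was 2.64 (SE 0.11, adjusted p = 1.46e-14) in WT and 2.72 (SE 0.11, adjusted p = 1.05e-14) in KO cells, the highest of any member in either genotype. The difference between these responses was 0.08, with a 95% interval of −0.24 to 0.40 (adjusted p = 0.762). Comparisons of KO with WT gave −0.31 in control cells (adjusted p = 0.115) and −0.23 in senescent cells (adjusted p = 0.0667). The second of these passed in 3 of 8 alternative analyses. Exons of Nrg1 share 482 bases with those of Gm26578 on the other strand, which was itself counted at a mean of 1.04 CPM in WT senescent and 1.27 CPM in KO senescent libraries.

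Btc encodes betacellulin, which binds EGFR and ERBB4, and lies at chr5:91357261-91402994 on the minus strand (ENSMUSG00000082361). It was scarce, at 17 to 112 reads per library. Its levels were 1.01, 1.10 and 0.768 CPM for WT control, 1.67, 2.02 and 1.54 CPM in WT senescent, 1.52, 1.35 and 1.20 CPM in KO control and 4.28, 3.79 and 3.78 CPM in KO senescent replicates 1 to 3. The KO senescent libraries stood apart above the rest, and no 2 groups overlapped. Btc rose with senescence by 0.86 (SE 0.25, adjusted p = 0.00535) in WT and 1.54 (SE 0.22, adjusted p = 5.13e-06) in KO cells. KO senescent cells were higher than WT senescent cells by 1.18 (SE 0.22, adjusted p = 0.000386), the only call among members in that comparison. The difference between the responses was 0.68 (95% interval −0.02 to 1.38, adjusted p = 0.167) and did not pass.

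Areg and Epgn encode amphiregulin and epigen, both ligands of EGFR, and were close to the limit of what could be measured. Areg (ENSMUSG00000029378, chr5:91139599-91148432, plus strand) had 5 to 29 reads per library, at 0.603, 0.855 and 0.587 CPM for WT control, 0.680, 0.471 and 0.193 CPM in WT senescent, 0.760, 0.539 and 0.601 CPM in KO control and 0.888, 0.496 and 0.979 CPM in KO senescent replicates 1 to 3. The groups overlapped throughout, and Areg passed in none of the 5 comparisons (lowest adjusted p 0.197, KO against WT senescent cells). Epgn (ENSMUSG00000035020, chr5:91027464-91035215, plus strand) had 5 to 53 reads, at 0.804, 0.204 and 0.542 CPM for WT control, 0.714, 0.303 and 0.695 CPM in WT senescent, 0.600, 0.337 and 0.515 CPM in KO control and 1.00, 0.638 and 1.79 CPM in KO senescent replicates 1 to 3. KO senescent libraries were above KO control libraries without overlap, and the spread within the group was wide. The log2 fold change in KO cells was 1.25 (SE 0.48, adjusted p = 0.0297). It was 0.76 (adjusted p = 0.232) without KO senescent replicate 3, and it lost significance also without KO control replicate 2 (1.03, adjusted p = 0.118) or KO control replicate 3 (1.30, adjusted p = 0.0588), under DESeq2 (adjusted p = 0.0515) and under limma-voom (adjusted p = 0.0597).

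Epgn, Ereg, Areg and Btc are neighbours on chromosome 5, in this order, with no other protein-coding gene between them. Per kb of exon, Ereg was at 61.2 CPM in KO senescent cells, against 0.633 CPM for Epgn, 0.648 CPM for Areg and 0.875 CPM for Btc. The antisense gene Gm19610, which overlaps the start of Ereg, had a mean of 2.87 CPM in KO control and 8.16 CPM in KO senescent cells. Its log2 fold change with senescence was 0.48 (adjusted p = 0.0344) in WT and 1.51 (adjusted p = 4.95e-07) in KO cells, with an interaction of 1.03 (adjusted p = 0.00802). Mthfd2l, a folate pathway enzyme gene on the other side of Epgn, rose by 0.36 in KO cells (adjusted p = 0.00213) and was at 0.07 in WT cells (adjusted p = 0.529). RefSeq promoter windows (GRCm38.p6) were matched for 6 of the 10 members, namely Areg, Epgn, Tgfa, Btc, Egfr and Erbb2. The 250 bases before the start are shown for the cluster gene that passed in no comparison and for the one called in KO senescent cells against both KO control and WT senescent cells.
Areg, chr5:91139349-91139598, plus strand: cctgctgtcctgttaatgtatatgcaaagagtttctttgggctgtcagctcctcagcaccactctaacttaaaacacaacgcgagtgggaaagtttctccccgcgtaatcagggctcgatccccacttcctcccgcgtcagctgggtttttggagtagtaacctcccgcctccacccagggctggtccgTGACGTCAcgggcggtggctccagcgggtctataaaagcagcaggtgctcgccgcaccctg
Btc, chr5:91402995-91403244, minus strand: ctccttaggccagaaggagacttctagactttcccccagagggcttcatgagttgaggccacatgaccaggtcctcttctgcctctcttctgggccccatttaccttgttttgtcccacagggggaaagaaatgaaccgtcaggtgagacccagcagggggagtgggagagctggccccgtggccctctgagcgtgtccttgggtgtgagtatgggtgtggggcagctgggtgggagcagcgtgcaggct

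Capitals mark a match to the cAMP response element TGACGTCA, 61 bases before the start of Areg, which 1.55% of 32851 promoter windows of this length hold. The AP-1 motif TGANTCA and the E-box CACGTG, searched on both strands, had no match in any of the 6 members' windows, and 6.75% and 6.02% of all windows hold one. A match is a run of letters and not a measured binding site.

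Among the receptors, the largest differences were those of Erbb2. ERBB2, which binds no ligand itself and acts as the partner of the other receptors, is encoded at chr11:98412470-98437716 on the plus strand (ENSMUSG00000062312). Its gene was measured at 57.5, 54.0 and 62.7 CPM for WT control, 34.3, 38.5 and 36.0 CPM in WT senescent, 62.8, 62.9 and 58.9 CPM in KO control and 28.8, 29.4 and 27.1 CPM in KO senescent replicates 1 to 3. Control groups overlapped, and the KO senescent libraries all lay below the WT senescent ones. Erbb2 fell with senescence in both genotypes, by a log2 fold change of −0.68 (SE 0.07, adjusted p = 1.91e-08) in WT and −1.11 (SE 0.07, adjusted p = 8.49e-12) in KO cells. The fall was greater in KO cells by −0.43 (SE 0.09, adjusted p = 0.00251), and KO senescent cells were lower than WT senescent cells by −0.35 (SE 0.07, adjusted p = 0.000686). Exon overlap with Mien1, on the other strand, was 9 bases.

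Egfr, the receptor of 6 of the 7 ligands, lies at chr11:16752203-16918158 on the plus strand (ENSMUSG00000020122). It was measured at 27.8, 27.8 and 31.2 CPM for WT control, 36.1, 31.4 and 35.1 CPM in WT senescent, 24.6, 25.1 and 23.4 CPM in KO control and 31.95, 30.1 and 28.0 CPM in KO senescent replicates 1 to 3. Senescent libraries were above control libraries of their genotype, and the KO control libraries were the lowest of all. Egfr rose slightly with senescence, by 0.24 (SE 0.08, adjusted p = 0.00913) in WT and 0.30 (SE 0.08, adjusted p = 0.002) in KO cells, and the difference of 0.06 had a 95% interval of −0.17 to 0.28. The WT rise did not pass without WT senescent replicate 1 (0.20, adjusted p = 0.0564). KO control cells were lower than WT control cells by −0.25 (SE 0.08, adjusted p = 0.0375), which lost significance without any 1 of 5 of the 6 libraries, all but WT control replicate 2 (adjusted p from 0.0566 to 0.158), and under limma-voom (adjusted p = 0.0626).

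Erbb3 encodes a receptor for neuregulins with little kinase activity of its own, at chr10:128567523-128589652 on the minus strand (ENSMUSG00000018166). It had 17 to 44 reads per library, at 1.09, 1.14 and 0.768 CPM for WT control, 1.05, 1.01 and 1.70 CPM in WT senescent, 0.920, 0.909 and 1.46 CPM in KO control and 1.39, 1.45 and 1.15 CPM in KO senescent replicates 1 to 3. The groups overlapped, and no comparison passed (lowest adjusted p 0.414).

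**Figure D2:**
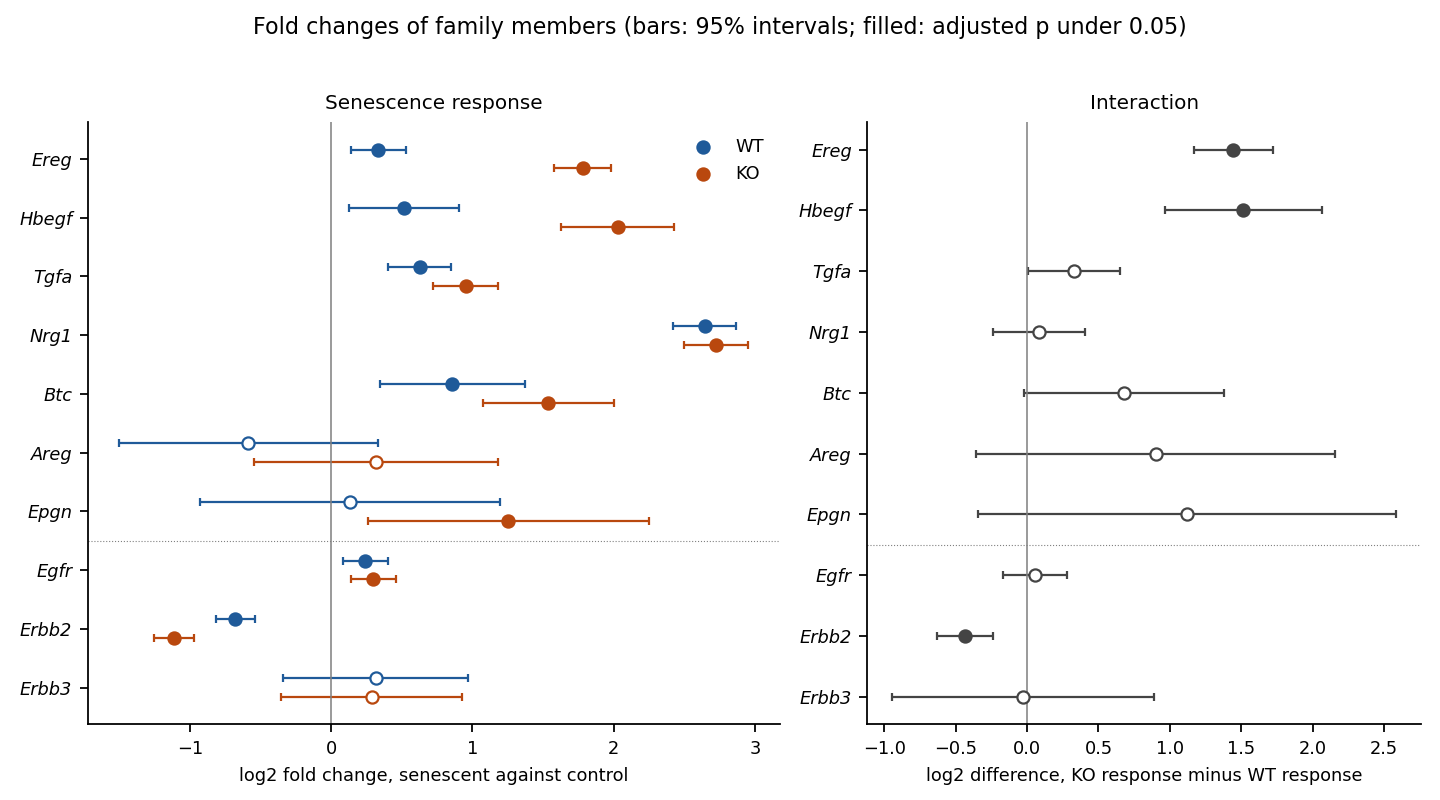
Left, log2 fold change of senescent against control cells for each member in WT (blue) and KO (orange) cells. Right, the KO response minus the WT response. Bars are 95% intervals, filled points have an adjusted p under 0.05, and the dotted line separates ligands (above) from receptors. In the right panel only Ereg (1.44), Hbegf (1.51) and Erbb2 (−0.43) are filled.

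Whether the senescence response differed between genotypes was tested as an interaction, in which a shift shared by all libraries of a genotype cancels. Of the 10 members, 2 had a higher response in KO cells (Ereg and Hbegf), beside 9.24% of all genes, and 1 had a lower one (Erbb2), beside 11.7%. Both Ereg and Hbegf were called on size, beside 3.66% of all genes. The median interaction was 0.50 over the 10 members and −0.03 over all genes. Of the members 7 did not pass, and these included Areg (0.90) and Epgn (1.12), which had few reads. The counts of the 2 genotypes were deposited as separate tables, and the labels name no batch. Cells of each genotype came from different mice, so any difference in handling between them cannot be told apart from genotype in the direct comparisons. Between control cells, 0 of 10 members were higher in KO, beside 8.07% of all genes, and 3 of 10 were lower (Ereg, Tgfa and Egfr), beside 4.96%. At an unadjusted p under 0.05 the QL test also gave 0 members higher in KO control cells, as did DESeq2 and limma-voom at an adjusted p under 0.05. Only Ereg was called there, beside 2.54%. Between senescent cells, 3 of 10 members were higher in KO (Btc, Ereg and Hbegf), beside 11.9%, and 2 of 10 were lower (Erbb2 and Tgfa), beside 11.8%. Only Btc was called, beside 3.48%.

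Per kb of exon, a scale that sets levels of different genes roughly side by side, Ereg and Hbegf made up nearly all ligand transcript. Length here was that of all annotated exons of a gene together, 10351 bases for Nrg1 and 11326 for Egfr. This can exceed the length of the transcript that was expressed, so levels and shares of such genes may be understated. Ereg was 68.4% ± 1.09 (SD, n = 3) of the sum of the 7 ligands in WT control, 64.2% ± 0.69 in WT senescent, 60.0% ± 2.70 in KO control and 57.5% ± 1.55 in KO senescent cells. Hbegf was 26.1% ± 0.80, 27.6% ± 0.66, 31.6% ± 3.42 and 36.4% ± 1.76 in the same order. Nrg1 was 0.76% of the sum in WT control and 3.52% in WT senescent cells. The ligand sum was 56.3 CPM per kb in WT control (lowest and highest library 53.4 and 61.8), 75.8 in WT senescent (71.4 and 81.9), 29.8 in KO control (26.7 and 35.3) and 106.5 in KO senescent cells (96.7 and 116). Neighbouring groups in this order of sums, from KO control to WT control, WT senescent and KO senescent, did not overlap. The sum of the 3 receptors was 13.9 CPM per kb in WT control, 10.2 in WT senescent, 14.1 in KO control and 8.33 in KO senescent cells. By group means, Erbb2 made up 80.4% of the receptor sum in WT control and 68.3% in WT senescent cells, and 83.5% and 65.6% in the KO groups. Egfr made up 18.4% and 29.7% in the WT groups and 15.2% and 31.8% in the KO groups.

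**Figure D3:**
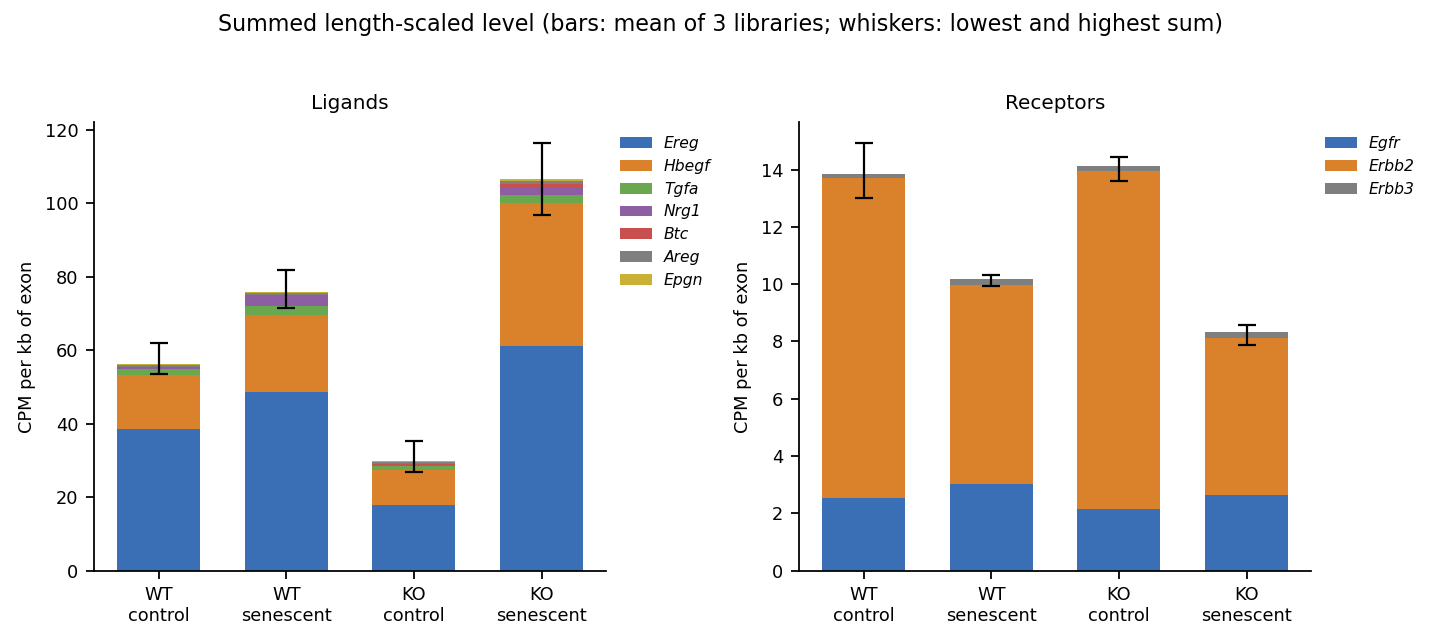
Summed level of the 7 ligands (left) and 3 receptors (right) in CPM per kb of exon, stacked by gene as the mean of 3 libraries, with whiskers at the lowest and highest library sum. The ligand sum is lowest in KO control cells (29.8) and highest in KO senescent cells (106.5), whereas the receptor sum is lowest in KO senescent cells (8.33).

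The 5 other family genes were scarce. Egf, the founding ligand, was at 1.97, 1.34 and 1.22 CPM for WT control, 2.11, 2.63 and 2.82 CPM in WT senescent, 2.48, 1.99 and 1.97 CPM in KO control and 1.12, 1.45 and 1.65 CPM in KO senescent replicates 1 to 3. It went in opposite directions in the genotypes, by a log2 fold change of 0.73 in WT (SE 0.25, adjusted p = 0.0185) and −0.60 in KO cells (SE 0.25, adjusted p = 0.0499), with an interaction of −1.33 (SE 0.36, adjusted p = 0.0115). Nrg2 was called in both genotypes, from 0.183 ± 0.0882 to 0.828 ± 0.276 CPM in WT (log2 fold change 2.16, adjusted p = 0.00142) and from 0.133 ± 0.0970 to 1.01 ± 0.285 CPM in KO cells (2.82, adjusted p = 0.000107). Control levels of Nrg2 were about those of the detection floor, so its fold changes depend on the prior count of the fit. Nrg4 was at 0.642 to 1.67 CPM and passed in no comparison. Nrg3 and Erbb4, a receptor for neuregulins and several EGFR ligands, were removed by the filter on low counts, with at most 11 and 12 reads in any library.

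Of 7 genes that release ligands from the membrane or control that step, 3 were higher and 4 lower in WT senescent cells (beside 29.2% and 27% of all genes) and 3 were higher and 2 lower in KO senescent cells (beside 28.5% and 28.6%). The 1 called gene, in KO cells beside 18.8% of all genes, was Rhbdf2, which encodes an iRhom that carries ADAM17 to the cell surface. It rose from 6.81 ± 0.27 to 15.6 ± 1.72 CPM in KO cells (SD, n = 3, log2 fold change 1.20, adjusted p = 5.68e-09), and by 0.70 in WT cells (adjusted p = 1.28e-05), with an interaction of 0.50 (adjusted p = 0.0254). Of 19 genes of the RAS, ERK and PI3K cascades, 4 were higher and 6 lower with senescence in each genotype, shares near those of all genes (29.2% and 27% in WT, 28.5% and 28.6% in KO). The count of higher genes in WT cells was 2 under DESeq2 and when a single library was omitted from among control replicates 1 and 2 and senescent replicates 2 and 3. In KO cells it was 2 when control replicate 2, control replicate 3 or senescent replicate 3 was omitted, and with upper-quartile factors it was 9 in WT and 7 in KO cells. The interaction passed upward for 2 of 19 and downward for 6 of 19, beside 9.24% and 11.7% of all genes. The downward count was 5 or 6 in every alternative analysis and with any 1 library left out. Pik3r1, a regulatory subunit of PI3K, was the 1 gene of this list that was called. It rose by 1.09 in WT cells (adjusted p = 1.24e-05), and its interaction was −1.08 (adjusted p = 0.00128). The medians of these lists lay near that of all genes, at −0.12 and 0.01 in WT and 0.09 and −0.07 in KO cells.

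Of 15 feedback regulators, 7 were higher and 4 lower in WT senescent cells, beside 29.2% and 27% of all genes, and 12 were higher and 2 lower in KO senescent cells, beside 28.5% and 28.6%. The median of their log2 fold changes was 0.25 in WT and 0.61 in KO cells. Without KO senescent replicate 2, the 12 higher in KO cells were 9. In KO cells 4 of the 15 were called, beside 18.8% of all genes. Spry4 and Spry1, which encode Sprouty inhibitors of RAS signalling, rose by 2.10 (SE 0.18, adjusted p = 2.35e-09) and 1.72 (SE 0.15, adjusted p = 3.15e-09), and Dusp4 and Dusp6, which encode phosphatases of ERK, by 1.58 (SE 0.13, adjusted p = 1.01e-09) and 1.34 (SE 0.11, adjusted p = 5.61e-10). In WT cells the same genes rose by 1.29, 0.79, 1.20 and 0.57 (highest adjusted p 0.000193). The interaction passed upward for 7 of 15, beside the 9.24% of all genes given above, and downward for 1 of 15 (beside 11.7%). The upward count was 5 to 7 with single libraries left out and 6 under limma-voom. Among the genes that passed upward was Lrig1, whose protein promotes receptor breakdown. It was lower in WT senescent cells (−0.46, adjusted p = 0.00711) and higher in KO senescent cells (0.61, adjusted p = 0.000974), with an interaction of 1.07 (SE 0.17, adjusted p = 0.00127). Its level in KO senescent cells, 83.9 ± 5.54 CPM, exceeded that in WT senescent cells, 41.8 ± 4.37 CPM, by 1.00 (adjusted p = 0.000102).

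Of 11 early response genes, 4 were higher and 4 lower in WT senescent cells (29.2% and 27% of all genes), and 7 were higher and 0 lower in KO senescent cells (28.5% and 28.6% of all genes). The interaction passed upward for 6 of 11, beside 9.24% of all genes, and the count was 6 in each fit that left out 1 library. Fosl1, which encodes the AP-1 subunit FRA-1, went from 46.9 ± 7.84 to 111 ± 8.43 CPM in KO cells (log2 fold change 1.24, adjusted p = 3.37e-07) and had an interaction of 1.11 (SE 0.15, adjusted p = 0.000294). Exons of Fosl1 share 1163 of their 2033 bases with Ccdc85b on the other strand. Because the use of strand in counting was not stated, reads of the pair in that stretch cannot be told apart. Phlda1 was measured at 47.5, 47.6 and 52.2 CPM for WT control, 80.2, 74.4 and 75.4 CPM in WT senescent, 35.0, 32.8 and 31.4 CPM in KO control and 83.8, 80.6 and 99.2 CPM in KO senescent replicates 1 to 3. It rose by 0.64 in WT (adjusted p = 1.29e-07) and 1.41 in KO cells (adjusted p = 7.33e-13), with an interaction of 0.77 (adjusted p = 3.81e-05). The same limit holds for Phlda1, which shares 727 of its 2205 exon bases with Gm28592 on the other strand. Etv1 and Etv5, which encode ETS factors downstream of ERK, were called in both genotypes, at 1.85 and 1.29 in WT and 1.77 and 1.15 in KO cells (highest adjusted p 8.87e-06), and neither passed in the interaction. Between control cells, 6 of 11 were lower and 1 higher in KO, beside 4.96% and 8.07% of all genes. Between senescent cells 7 of 11 were higher and 0 lower, beside 11.9% and 11.8%. Neither count of 0 lower rose at an unadjusted p under 0.05 in the QL test or at an adjusted p under 0.05 with DESeq2 or limma-voom. The 6 lower in control cells were 3 without WT control replicate 1 or KO control replicate 2, and 2 without WT control replicate 3 or KO control replicate 3. The 7 higher between senescent cells were 5 without WT senescent replicate 2, WT senescent replicate 3 or KO senescent replicate 3. They were 6 under limma-voom and without any other senescent library.

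**Figure D4:**
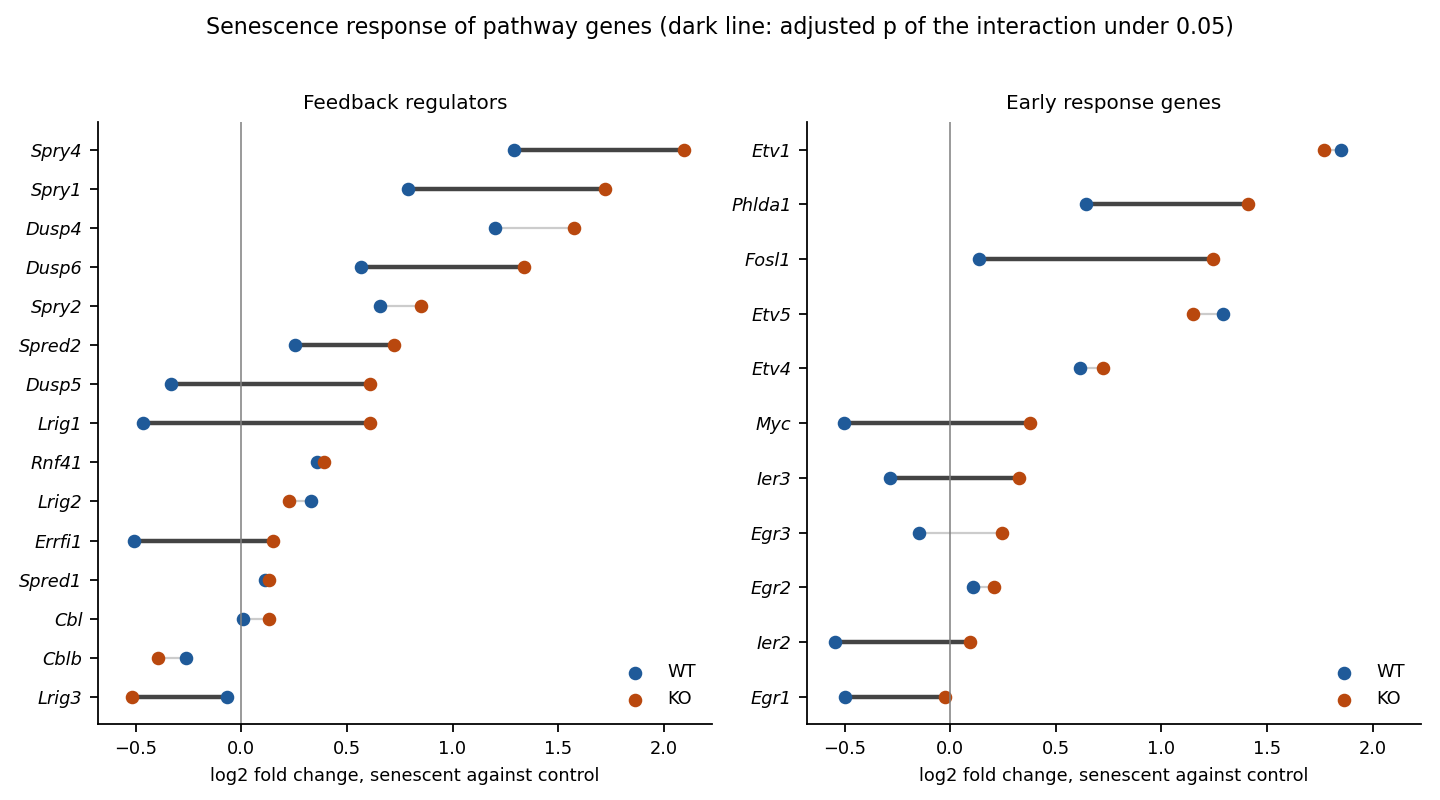
Log2 fold change of senescent against control cells for 15 feedback regulators (left) and 11 early response genes (right), with WT in blue and KO in orange, joined by a line for each gene. Lines are dark where the interaction had an adjusted p under 0.05. Dark lines end further right in KO for 7 feedback and 6 early response genes, and Lrig3 is the 1 gene with a dark line that ends further left.

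The genes whose pattern over the 12 libraries was most like that of a called member were found by the root mean square (RMS) difference of log2 CPM less each gene's own mean, among the 13872 genes that averaged 1 CPM or more. For Ereg they were Rnd1 (RMS 0.19), Fam83g (0.20) and Phlda1 (0.21). For Hbegf they were Arhgap22 (0.18), Tiparp (0.19) and Gm44275 (0.19). For Nrg1 they were Fap (0.21), Icam1 (0.22) and Bst2 (0.24), and for Btc they were Rassf3 (0.21), Rgs16 (0.21) and Aqp1 (0.22). The nearest genes to Erbb2 were Ccnl2, Fmr1 and Hnrnpdl, all at 0.08. Epgn had no near match, with Wdr74, Hmga1 and Prl2c2 at 0.42 to 0.43. All these genes share the same 12 libraries, and the measure describes likeness of level only.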

How the data were processed

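Per the labels and the study's methods, the authors demultiplexed reads with bcl2fastq 2.17, trimmed them with Trimmomatic 0.36, mapped them to GRCm38 with STAR 2.5.2b and counted uniquely mapped exonic reads with featureCounts. The deposited values are raw counts per gene, in 1 table per genotype. The use of strand in counting is not given in the sources used here. Symbols, coordinates and exon lengths came from GENCODE M21, promoters from RefSeq. The counts were analysed with edgeR 4.0.16 in R 4.3.3. Genes were kept by filterByExpr, and TMM factors and a robust QL fit used all 12 libraries with 1 mean per group. Benjamini-Hochberg adjustment ran over 17416 genes. A gene was called at an adjusted p under 0.05 and a log2 fold change over 1 in size. The scripts were tested on simulated data. Alternatives used DESeq2 1.42.0, limma 3.58.1 (voom), other factors and filters, fewer groups, a replicate block and single libraries left out. Intervals cover counting error and the spread between these libraries only, and the floor of 3 counts was a fixed choice. Reads carried no molecular identifiers.

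Named genes were all family genes, the targeted gene, pathway list genes called in at least 1 comparison, and the 3 genes nearest in pattern to each called member. Genes next to or overlapping members or list genes, and single cell type markers, were chosen and added after values were seen. So were Lrig3, Errfi1, Dusp5, Egr1, Ier2, Ier3, Myc, Adam10, Adam17 and Timp3. Members, lists and rules were chosen with earlier results of these data known.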

Additional observations from a re-analysis of the deposited data

Results flagged for a closer look

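In 3 members the senescence response differed between the 2 genotypes by a test of the difference itself (edgeR QL interaction, Benjamini-Hochberg adjusted). For Ereg the KO response minus the WT response was 1.44 on the log2 scale (adjusted p = 7.73e-06), and for Hbegf it was 1.51 (adjusted p = 0.00263). For Erbb2 it was −0.43 (adjusted p = 0.00251). The interaction equals the KO against WT difference in senescent cells less that in control cells. For Ereg these were 0.33 and −1.11, for Hbegf 0.89 and −0.62, and for Erbb2 −0.35 and 0.09. The chondrocyte marker sum differed between the same groups, from 7241 to 9007 CPM in WT control to 571 to 657 CPM in KO senescent libraries, and its part in these results was not tested.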

How the results depend on the processing

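Of 380 values of members under other normalizations, filters, tools or designs, 359 kept their direction and side of the threshold, 7 lost and 9 gained significance and 5 changed sign. Of 360 values without 1 library, 318 kept both, 22 lost and 3 gained significance and 17 changed sign. No difference that passed in the full analysis changed sign. By adjusted p alone, members counted were 7 in WT senescent against control cells, 3 between control cells and 5 between senescent cells, each against 1 called. Sign changes concerned the Erbb3 interaction (0.0013 with DESeq2 size factors, 0.0016 under DESeq2, 0.0485 under limma-voom, 0.0053 with the replicate block) and Epgn between control cells (0.0383 under limma-voom). Without single libraries, the Erbb3 interaction ranged from −0.1664 to 0.2407, Erbb3 between control cells from −0.1272 to 0.2452 and between senescent cells from −0.0434 to 0.3628, Epgn in WT senescence from −0.2544 to 0.6177 and between control cells from −0.4933 to 0.3794, Areg between control cells from −0.262 to 0.085, and the interactions of Nrg1 from −0.0107 to 0.1649 and of Egfr from −0.0037 to 0.1038. Replicate numbers did not pair the libraries (correlations of deviations −0.125 to 0.108). With the replicate block, called members were 1, 6, 2, 1 and 1 in the 5 comparisons, as without it, and Hbegf between control cells passed (−0.63, adjusted p = 0.0446). Over all genes, calls between control cells were 442, against 273 with only these groups, 283 without WT control replicate 1 and 753 without WT control replicate 3. By adjusted p alone the counts over all genes were 9795, 9947, 3639, 2269 and 4130, against 3039, 3278, 637, 442 and 606. Areg and Epgn gave no value under the filter of 1 CPM in 3 libraries. Areg, Epgn and Erbb3 had 5 to 53 reads per library, and whether this depth could show smaller differences was not tested.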
